A study of Mus musculus with 8 samples.

Results

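The DNA barcodes described here are those carried by 50 or more cells of a single library of transplanted mouse haematopoietic stem cells. They were chosen by their number of cells, and 63 of the 481 barcodes counted per replicate reached it. These are called large clones below. The stem cells came from bone marrow of wild-type C57B6/J mice, were given random DNA barcodes by transduction and were put into lethally irradiated mice. Cells with the stem cell surface phenotype were sorted 20 weeks later. There is 1 group, with 4 DNA barcode libraries numbered replicates 1 to 4, and no other treatment, genotype or control. The labels give neither the age of the mice nor the number of animals behind a replicate. The 4 transcriptome libraries, numbered alike, are not analysed here, so which genes vary between the clones, whether sister cells resemble each other, and whether the cells carry stem cell markers was not tested.

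Haematopoietic stem cells sit at the top of the blood hierarchy, renew themselves and rebuild all blood lineages in an irradiated host. A DNA barcode inserted into the genome of a stem cell is inherited by all its daughters, which makes the barcode a name for the clone. Stem cells are known to differ in how much they expand after transplantation and in which lineages they favour.

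The barcodes of the large clones were 21 bases long. All 63 began with the bases GTG, which are in lower case in the sequences printed first, and the other 18 positions, in capitals, varied. The smaller clones began with GTG too, except 2 of replicate 1. Names give the replicate and, as a letter, the rank by cells. The 3 largest clones of each replicate are shown because they lead the cell counts that follow.
R1a: gtgATATTTTGCCGATGGTCT
R1b: gtgGTTTCAAACAGTTTGGGG
R1c: gtgTTTGTTCTTCAAATTTGT
R2a: gtgTCCCTGGTGTTTGCGCCA
R2b: gtgGGTTCTGAGGGTCTGAAT
R2c: gtgGTGGTACTAGTGGTTTCC
R3a: gtgTTTCTCATTGACTGTTAT
R3b: gtgCCGAGGAGGCATAGATTG
R3c: gtgGGGGCCGCGGCTTATGTC
R4a: gtgATGTTGTCAGGTAGCTGC
R4b: gtgGGTCCGGGGGCGCTGTTT
R4c: gtgCCTTCTCGGTTGTTTTTT

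Replicates 1 to 4 held 12, 15, 14 and 22 large clones, with 1217, 1557, 2662 and 3696 cells. Large clones made up 6.82%, 16.3%, 15.9% and 17.6% of the clones. They held 49.1% of the barcoded cells in replicate 1, with an exact (Clopper-Pearson) 95% interval of 47.1% to 51.1%. The shares of replicates 2, 3 and 4 were 72.7%, 78.9% and 78.3%, with intervals of 70.8% to 74.6%, 77.5% to 80.3% and 77.1% to 79.5%. Replicate 1 had the lowest share, and the mean was 69.8% ± 14.1 (SD, n = 4). These shares follow from the choice of members by size and from the 2479, 2141, 3374 and 4718 barcoded cells, so they are a description. The intervals cover counting error only. They take cells as independent draws, which cells of the same clone are not, so they are too narrow to compare replicates.

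The large clones differed widely in size among themselves. Of the 63, 29 had at least 100 cells and 10 had at least 300, while 15 had fewer than 60. The median large clone had 63.5, 66, 103.5 and 113.5 cells in replicates 1 to 4. In replicate 2 a single clone stood far above the rest: R2a had 618 cells, 6.18 times the 100 of R2b, and the other 14 lay between 50 and 100 cells. In replicate 4 no such step was seen, since R4a with 394 cells exceeded R4b with 378 by only 1.04 times. The ratio of the first to the next clone was 2.10 in replicate 1 and 1.26 in replicate 3.

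The boundary of 50 cells cut through a continuous range of sizes. The smallest large clone had 52, 50, 54 and 52 cells, and the largest clone left out had 49, 49, 44 and 49 cells. Across the replicates, 14 clones of 40 to 49 cells lay just outside. Just inside, replicate 2 had 1 clone of 50 cells, labelled c2, and 3 clones of 51 cells, labelled c2, c3 and c4. Just outside, the clones of 49 cells were labelled c1 in replicate 1, c3 in replicate 2 and c4 in replicate 4.

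Each large clone carried 1 of the 4 labels that the authors' tables list under the header Cluster, c1 to c4. Their meaning was not given in the sources used here, and the comparisons over replicates assume that it was the same in all 4 libraries. Of the 63 large clones 29 were c3, 24 were c4, 9 were c2 and 1 was c1. Clones labelled c3 held 4815 of the 9132 cells of large clones, c4 3482, c2 735 and c1 100. The only large c1 clone, R4o, was in replicate 4 and had the barcode gtgGTAGGCTTTTCTGTCCTA and 100 cells. Sizes ran from 51 to 664 cells for c3, from 51 to 526 for c4 and from 50 to 168 for c2, so the ranges overlapped. The order of the medians was not the same in all replicates. Large c4 clones had a median of 88.5, 70, 111.5 and 97 cells in replicates 1 to 4, against 67, 68.5, 104 and 124 for c3 and 60, 51, 54 and 124.5 for c2.

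In replicate 1 the 5 large c3 clones had 143, 79, 67, 60 and 52 cells. The 4 c4 clones there had 317, 119, 58 and 57 cells, and the 3 c2 clones 151, 60 and 54. Each of these 3 labels thus had both a clone well above the median and clones near the boundary.
In replicate 2 the 8 large c3 clones had 618, 100, 83, 73, 64, 58, 53 and 51 cells. The 4 c4 clones had 99, 74, 66 and 51 cells, and the 3 c2 clones 66, 51 and 50. Apart from R2a, the ranges of the 3 labels overlapped.
In replicate 3 the 10 large c4 clones had 526, 345, 221, 216, 120, 103, 73, 68, 58 and 56 cells. The 3 c3 clones had 664, 104 and 54 cells, and the only c2 clone had 54. Clones labelled c4 filled the ranks from the second to the sixth.
In replicate 4 the 13 large c3 clones had 394, 361, 329, 308, 258, 168, 124, 114, 113, 102, 85, 71 and 65 cells. The 6 c4 clones had 378, 169, 109, 85, 62 and 52 cells, and the 2 c2 clones 168 and 81. Of its 6 largest clones, all but R4b were c3.

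The label was not used to choose the clones, so its make-up was compared with that of the labelled clones of fewer than 50 cells within each replicate. How the labels were made was not given in the sources used here. If clone size entered into them, the differences between large and smaller clones would be set in advance, for each label. Label c1 was rarer among large clones in each of the 4 replicates. It marked 0%, 0%, 0% and 4.55% of the large clones of replicates 1 to 4, against 18.5%, 6.49%, 32.4% and 29.1% of the smaller ones. With 0 of 12, 0 of 15 and 0 of 14 large clones, the upper Clopper-Pearson limits were 26.5%, 21.8% and 23.2%, so each replicate alone allows shares up to those. The mean difference was -20.5 ± 10.9 percentage points (SD, n = 4, exact two-sided sign-flip test p = 0.13, adjusted over the 4 labels 0.25). A p of 0.13 is, rounded, the smallest that 4 replicates can give. With smaller clones of at least 10 cells the difference was -15.2 ± 13.8 (SD, n = 4, exact sign-flip p = 0.13, adjusted 0.5), above 0 in 0 of 4 replicates. A relation of label to clone size was already known from earlier results of these data, so this is no independent evidence of it.

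Label c3 was more frequent among large clones in 4 of 4 replicates. Its share was 41.7%, 53.3%, 21.4% and 59.1% of the large clones, against 38.4%, 39.0%, 13.5% and 16.5% of the smaller ones. The mean difference was 17.0 ± 17.6 percentage points (SD, n = 4, exact sign-flip p = 0.13, adjusted 0.25), a spread as wide as the difference. Replicate 4 contributed 42.6 points of difference and the others 3.26, 14.4 and 7.92, and without replicate 4 the mean was 8.51. The difference was above 0 in only 3 of 4 replicates with large clones of at least 100 cells (26.4 ± 34.0) or with smaller clones of at least 10 cells (13.9 ± 20.0). Of all labelled c3 clones, 7.94%, 21.1%, 23.1% and 43.3% were large.

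For labels c4 and c2, as for c3, the mean difference between large and smaller clones did not exceed its spread between replicates. The share of c4 was 33.3%, 26.7%, 71.4% and 27.3% among large clones and 25.2%, 27.3%, 43.2% and 23.3% among smaller ones. The difference of 9.93 ± 12.7 points (SD, n = 4) was above 0 in 3 of 4 replicates (exact sign-flip p = 0.25, adjusted 0.333), and 3.84 without replicate 3. For c2 the shares were 25%, 20%, 7.14% and 9.09% among large clones, against 17.9%, 27.3%, 10.8% and 31.1%. The difference of -6.45 ± 12 points (SD, n = 4) was above 0 in 1 of 4 replicates (exact sign-flip p = 0.375, adjusted 0.375). It was -1.27 without replicate 4, -11.0 without replicate 1, -13.6 for large clones of at least 100 cells and -2.62 for those of at least 30 cells. These comparisons take a clone as the unit within a replicate and the replicate as the unit of the test, and the labels do not say that replicates were separate animals.

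The large clones had T-rich barcodes that differed strongly in composition from one another. At 17 of the 18 variable positions T was the most frequent base among the 63 large clones, with a share between 33.3% and 57.1% at those positions. At the remaining position T had 31.7%. Among the 418 smaller clones T led at all 18 positions, with 39.7% to 51.2%, so being T-rich was not particular to the large clones. The number of T in these 18 bases ranged from 3 to 16 with a median of 7, and the number of G or C from 1 to 14 with a median of 8. Barcodes at the ends of these ranges show the spread, with capitals at the 18 varying positions.
R3n: gtgTTTTTTTTTCTATTTTTT
R4l: gtgTTTTTTATTTATTGTTTG
R4h: gtgGCTTGGCTTCCGGCCCGG
R3g: gtgGCTATGGCGGGTGGCGAG
R3n had 16 T and 1 G or C, with 9 T in a row, and 54 cells. R4l had 14 T and 2 G or C, and 113 cells. R4h had 14 G or C and 4 T, and 168 cells. R3g had 13 G or C and 3 T, and 104 cells. Barcodes of opposite composition thus both occurred among the large clones.

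Large clones were neither richer nor poorer in T than smaller ones in all replicates. Mean T content was 48.6%, 38.1%, 41.3% and 44.9% for the large clones of replicates 1 to 4, and 43.7%, 43.9%, 46.1% and 43.6% for smaller ones. Large clones were richer in T in replicates 1 and 4 and poorer in replicates 2 and 3. The mean difference was -1.07 ± 5.09 percentage points (SD, n = 4, exact sign-flip p = 0.875, adjusted 0.875), and its sign changed without replicate 2 (0.478) or without replicate 3 (0.180). For G or C the large clones had 37.0%, 47.8%, 44.4% and 43.7% and the smaller ones 40.1%, 42.4%, 37.9% and 41.7%. The difference of 2.68 ± 4.32 points (SD, n = 4, exact sign-flip p = 0.375, adjusted 0.75) was above 0 in 3 of 4 replicates, and -0.32 with large clones of at least 30 cells. Among the 63 large clones Spearman's rho between cells and number of T was -0.06, a description over barcodes that share 4 libraries. The 3 label groups with several members overlapped in T content as well, with medians of 8 for c3 (3 to 16), 7 for c4 (3 to 13) and 7 for c2 (3 to 12).

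The large clones of a replicate were far apart in sequence. The closest pair differed at 7, 8, 7 and 6 bases in replicates 1 to 4, and the median pair at 12, 13, 13 and 12. Between replicates, large clones with different barcodes differed at 4 bases or more, with a median of 13. No large clone was therefore within a few bases of another large clone of its own library.

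Some large clones did have a small barcode close by. Within 2 bases, 6 of the 63 large clones had 7 such barcodes in their own replicate, and 0 had any in the other 3. The 0 depends on this limit. Within 3 bases, 6 large clones had 8 smaller barcodes in their own replicate, and 3 large clones had 3 in other replicates. Smaller clones had close barcodes too: of the 298 clones of 2 to 49 cells, 6 had a still smaller barcode within 2 bases, all in replicate 1. There the shares were 4 of 12 large clones and 6 of 118 clones of 2 to 49 cells, a difference that was not tested. Only barcodes of fewer cells than the clone count, so large clones had more barcodes that could count as close. The pairs that differ at 1 base are shown because they lie closest to a large clone. Capitals mark the base that differs, each large clone stands before its close barcode, and positions count from 1 at the 5′ end.
R1a: gtgaTattttgccgatggtct
close barcode: gtgaGattttgccgatggtct
R1b: gtggtTtcaaacagtttgggg
close barcode: gtggtGtcaaacagtttgggg
R1e: gtgtatTtgacatcgggcgct
close barcode: gtgtatGtgacatcgggcgct
R1g: gtgTtttttacggcctgtgga
close barcode: gtgGtttttacggcctgtgga
R1g: gtgttttttacggccTgtgga
close barcode: gtgttttttacggccGgtgga
R3b: gtgccgaggaggcAtagattg
close barcode: gtgccgaggaggcCtagattg
The 5 close barcodes of replicate 1 were T5G of R1a, T6G of R1b, T7G of R1e, and T4G and T16G of R1g. All 5 exchanged a T for a G, each was seen in 1 cell, and each had no label. The large clones beside them had 317, 151, 79 and 60 cells. In replicate 3 the change was A14C of R3b, a clone of 526 cells labelled c4, and its close barcode had 1 cell and the label c1.

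The seventh close barcode differed from R3n at T4A and T14C. It had 25 cells and shared the label c3 with R3n, whose own count was 54. Its sequence is shown beside R3n with the differing bases in capitals.
R3n: gtgTttttttttcTatttttt
close barcode: gtgAttttttttcCatttttt
Both barcodes are nearly all T. Whether they name different clones or the same one was not tested. At 3 bases, R3n also had a barcode of 20 cells labelled c1 in replicate 3, and another of 16 cells labelled c3 in replicate 1.

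By replicate, 33.3% of the large clones of replicate 1 and 14.3% of those of replicate 3 had a close smaller barcode, against 0% in replicates 2 and 4. Counted in the same way, within 2 bases, in the tables of the other replicates, the share was 0% for the large clones of each replicate. The mean share was 11.9% ± 15.8 (SD, n = 4), and 4.76% without replicate 1. With 2 replicates at 0 on both sides the planned sign-flip test could not give a p below 0.5, the value it gave, so it says nothing of the difference. Replicate 1 was also the only table with unlabelled barcodes, 13 of its 176, none of them a large clone. These 13 held 15 cells, and within 2 bases 5 of them lay next to a large clone and 6 next to a smaller one. Adding each close barcode to its larger neighbour left 63 large clones.

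Of the 62 distinct barcodes of large clones, 3 (4.84%) were also listed in another replicate. Of the 413 barcodes that were large in no replicate, 3 (0.726%) were in more than 1, and this difference was not tested. They are shown because a barcode is meant to name 1 clone.
R1h and R2i: gtgTTTTTTTGTTTGTTTGCT
R2b: gtgGGTTCTGAGGGTCTGAAT
R2j: gtgAGATTCGCTTCAACTCGA
The first was large in both its libraries. It had 60 cells in replicate 1 and 64 in replicate 2, or 2.42% (1.85% to 3.10%) and 2.99% (2.31% to 3.80%) of the barcoded cells. The intervals take cells of the same clone as independent draws, so they are too narrow to compare the libraries. Both libraries gave this barcode the label c3. Its variable part held 14 T, with 7 in a row.
R2b, with 100 cells, turned up once more on 1 cell of replicate 4. R2j, with 58 cells, turned up on 1 cell of replicate 3. Both were labelled c3 in replicate 2 and c1 where they had 1 cell, so for these 2 barcodes the label differed between libraries. Whether a barcode listed in more than 1 library marks the same clone was not tested.

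Cell barcodes, the 16-base tags that name a droplet, were almost never shared between libraries. Over the 6 pairs of replicates 16 were shared, and 0 of these carried the same DNA barcode in both. All 16 belonged to a large clone in at least 1 of the libraries, and 7 to a large clone in both. Each shared cell barcode names 1 cell per library, and 23 of these cells were of large clones. Large clones held 9132 of the 14411 listed cells, or 63.4%. That is a share of single cells, so the count of 16 out of 16 pairs cannot be set against it. The share of cells of large clones whose cell barcode recurred elsewhere was 0.329%, 0.385%, 0.150% and 0.244% in replicates 1 to 4. For all other listed cells, those without a DNA barcode included, it was 0.202%, 0%, 0.273% and 0.0835%. The difference of 0.137 ± 0.208 percentage points (SD, n = 4, exact sign-flip p = 0.25) was above 0 in 3 of 4 replicates. It was 0.0544 without replicate 2 and 0.224 without replicate 3. The single cell listed with the barcode of R2j in replicate 3 was 1 of the 16: its cell barcode was also in replicate 2, on a cell of R2a. Of the 64 cells of R2i, 1 had a cell barcode that replicate 1 listed on a cell of R1d.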

How the data were processed

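For each of the 4 DNA barcode libraries the authors deposited a text file. Per the file headers and values, each line holds a cell's 16-base cell barcode, its 21-base DNA barcode and its category (c1, c2, c3 or c4), with N where either is lacking. Cell Ranger and the build mm10 are named in the submitters' processing notes. The reading, filtering and merging of barcodes, the handling of doublets and the making of categories were not given in the sources used here. The tables hold no read or UMI counts, so depth per cell is unknown, and the number of barcoded cells limits the precision.

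A clone is 1 DNA barcode in 1 replicate. Distances are mismatches without gaps. A close barcode has fewer cells and differs at up to 2 bases. Differences between large and smaller clones were taken within each replicate and tested over the 4 replicates with an exact two-sided sign-flip test, with Benjamini-Hochberg adjustment within a family and a threshold of 0.05. The code was tested on simulated data with planted differences. Python 3.11.15, NumPy 2.4.6 and SciPy 1.17.1 were used. The members and tests were chosen with earlier results of these data known. The naming rule asked for full values of the 3 largest clones of each replicate. It asked the same for large clones found in another replicate or with a smaller barcode within 2 bases. Their cells and labels are given by replicate, but shares of barcoded cells and base counts only for some. That rule also asked for the sequence of each large clone. Only sequences that a result turns on are printed, and the extremes of composition and the only c1 clone were chosen after their values were seen. The planned tests of gene expression were not run.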

Additional observations from a re-analysis of the deposited data

Results flagged for a closer look

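In 2 measures a replicate stood apart from the other three by Dixon's test for 4 samples, out of 13 measures examined. Chance alone flags about 1 in 20 such groups.

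Label c1 marked 4.55% of the large clones of replicate 4 and 0% in the others (ratio of gap to range 1). This is 1 clone, R4o, and with the others tied at 0 any value above 0 gives that ratio, so this flag carries no weight.

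Label c4 marked 71.4% of the large clones of replicate 3, or 10 of 14, against 26.7% to 33.3% in the others (ratio 0.851). Among the smaller clones of replicate 3 its share was 43.2%.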

How the results depend on the processing

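Of 70 alternative values, 66 kept their direction and their side of the threshold, which no main value had passed. Sign-flip tests over 3 or 4 replicates cannot pass it. The other 4 reversed the sign of a difference in base composition, and the cause was not tested. Among the 66 are the alternatives without pairing by replicate, described below. They leave each difference as it was, so their direction was fixed in advance. With at least 30 cells for a large clone (93 clones), the difference in T was 1.60 and that in G or C -0.32 percentage points. Leaving out 1 replicate gave -3.08 to 0.478 for T. It gave 1.40 to 4.61 for G or C, -25.2 to -16.5 for c1, 8.51 to 21.6 for c3, -11.0 to -1.27 for c2 and 3.84 to 13.4 for c4. It gave 4.76 to 15.9 for close barcodes and 0.0544 to 0.224 for shared cell barcodes. With at least 100 cells (29 clones) the differences were -18.4, -13.6, 26.4 and 5.63 for c1 to c4, and that of c3 was above 0 in 3 of 4 replicates. The alternatives planned for gene expression were not run. The main tests are paired, since large and smaller clones come from the same replicate. Without this replicate block, an alternative added after the data had been seen, the difference of -20.5 for c1 gave p = 0.0286 by an exact permutation test, the smallest possible, and 0.114 adjusted over the labels. It changed no call.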

Other observations

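Cell barcodes at most 2 bases apart within a library were counted among the cells of large clones, since copies of 1 cell under nearly equal cell barcodes would add to the size of its clone. There were 7, 8, 32 and 58 such pairs in replicates 1 to 4. Both cells belonged to the same clone in 0, 0, 3 and 8 of them. For replicates 3 and 4 that is 9.38% and 13.8%, with exact (Clopper-Pearson) 95% intervals of 1.98% to 25% and 6.15% to 25.4%. Of all pairs of cells of large clones, 13.9% in replicate 3 and 6.51% in replicate 4 were of the same clone. Both lay inside those intervals, but in replicate 4 close to the lower limit. The intervals take pairs as independent, which pairs of cells that share a clone or a cell are not. In replicates 1 and 2, with 12.6% and 18.5% of all pairs, the intervals reached up to 41.0% and 36.9%. Only 1 pair differed at a single base, in replicate 4, and its cells shared a clone. This count was chosen after the data had been seen.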
